A study of Mus musculus with 2 samples.

Results

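Cells carrying transcripts of motile cilia genes were selected from whole cerebella of mouse embryos at E16.5. The selection used UMIs, the unique molecular identifiers that each mark 1 captured transcript molecule. A cell was taken when Foxj1, Ccdc153 and Tmem212 together had at least 2 UMIs and Ttr, the transcript of the choroid plexus protein transthyretin, had fewer than 50. Only barcodes with 1000 or more UMIs, 500 or more genes and no more than 10% mitochondrial UMIs were searched. The rule found 344 of 33294 cells, 196 of 16812 in the control library and 148 of 16482 in the mutant library. They are called Foxj1-selected cells here, because 160 of the 196 control cells (81.6%) and 129 of the 148 mutant cells (87.2%) had no UMI of Ccdc153 or Tmem212 and entered on Foxj1 alone.

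Control embryos were cre-negative, and the labels do not say whether they carried floxed alleles. The mutants were Smarca4fl/fl and Ctnnb1(ex3)fl/wt and carried Blbp-cre. In them cre from the Blbp promoter, which is active in radial glia and their progeny, removes exon 3 of 1 Ctnnb1 allele, which stabilises beta-catenin of the Wnt pathway, and both Smarca4 alleles, which encode an ATPase of the BAF chromatin remodelling complex. These mutants had cerebellar lesions, according to the series' design text. Each library pooled 3 samples of 1 genotype, so there was no replicate and no test, and a difference between genotypes cannot be told apart from a difference between 2 libraries.

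Motile cilia beat by sliding of microtubule doublets. Outer and inner dynein arms drive the sliding, radial spokes and the central pair control it, the nexin-dynein regulatory complex links the doublets, and further proteins line the doublets from inside. FOXJ1 is the transcription factor that switches on genes for these parts, together with the RFX factors, which bind the X-box motif. Multiciliated cells first multiply their centrioles, under MCIDAS and with DEUP1 in the deuterosome, whereas cells with a single motile cilium do not need to. In the brain Foxj1 is known from ependymal cells and their precursors among the radial glia, from the choroid plexus epithelium, and from the floor plate of the embryonic neural tube.

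The selected cells had a median of 11440.5 UMIs in control and 12979.5 in mutant cells, against 10261 and 9936.5 over all kept cells. No barcode of a selected cell occurred in both libraries, while 67 barcodes of kept cells did. Scrublet called 13 of the 196 control cells (6.63%) and 15 of the 148 mutant cells (10.1%) doublets, and these were left in. Its calls over all kept cells were 843 of 16812 (5.01%) for control and 618 of 16482 (3.75%) for mutant. Selected cells were thus called more often than kept cells, and the gap was wider among mutant cells. Barcodes with over 50% haemoglobin UMIs, 4066 and 4424 in number, served to measure free RNA, because a red blood cell should not make cilia transcripts. Of these barcodes, 666 and 778 also passed the cell filter. At least 1 UMI of the 3 selecting genes was present in 0.787% and 0.588% of all haemoglobin-rich barcodes. The UMI and Ttr parts of the rule were met in 3 and in 2, which were themselves selected cells. The median depth of the haemoglobin-rich barcodes was 9386.5 and 9216 UMIs. Expression levels are UMIs summed over cells and given as CPM, the usual share of a fixed total of all UMIs, and every interval is an exact 95% interval that covers counting error only.

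Most selected cells stood close to the threshold. Exactly 2 UMIs of the 3 genes were counted in 104 control and 84 mutant cells, 3 to 5 UMIs in 61 and 49 cells, and 6 or more in 31 and 15 cells. The highest count was 120 UMIs in a control cell and 48 in a mutant cell. Just outside the rule, 514 control and 458 mutant cells had a single UMI. These values chose the cells and are given as a description.

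**Figure D1:**
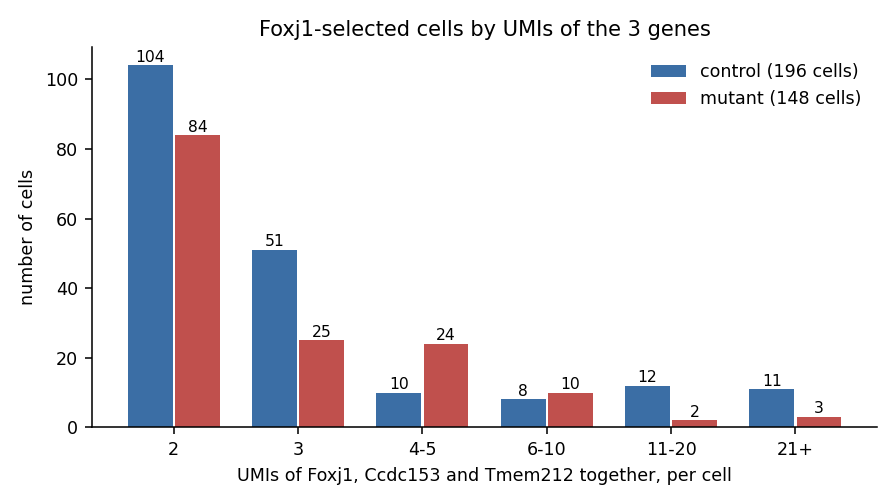
Number of Foxj1-selected cells (vertical axis) by the UMIs of Foxj1, Ccdc153 and Tmem212 together in a cell (horizontal axis), for the control and the mutant library. The bin of 2 UMIs holds 104 control and 84 mutant cells, and the bins from 6 UMIs up hold 31 and 15.

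Foxj1 itself (chromosome 11, 116330704 to 116335399, minus strand, GRCm38) had a UMI in 193 of 196 control and 145 of 148 mutant cells. Its level over all selected cells was 213 CPM in the control and 182 CPM in the mutant library. Ccdc153 (chromosome 9, 44240676 to 44247306), a coiled-coil gene used as an ependymal marker, had a UMI in 11 control and 6 mutant cells. Tmem212 (chromosome 3, 27866066 to 27896368), a membrane protein gene also used as an ependymal marker, had a UMI in 34 and 17 cells. Both marker genes were concentrated in the cells with 6 or more UMIs. There Ccdc153 reached 355 CPM in the control and 173 CPM in the mutant library, against 2.5 and 5.2 CPM in the cells with 3 to 5 UMIs. A single cell gave 36.3% of the Ccdc153 UMIs in control and 53.7% in mutant cells.

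The place of Ccdc153 and Tmem212 among the tiers follows partly from the rule, which counts their UMIs. Over 106 axonemal genes that the rule did not use, the selected cells had a median of 38 detected genes in control and 34 in mutant cells. Cells with 0 UMIs of the 3 genes and low Ttr had 4 and 5. Glial-type cells, with at least 5 UMIs of Slc1a3, Fabp7 and Sox9 and none of the 3 selecting genes, had 6 and 7. Within the selected cells the median was 29.5 and 26 genes at 2 UMIs, 43 and 39 at 3 to 5 UMIs, and 67 and 69 at 6 or more UMIs. Cells just outside, with 1 UMI, had 10 in both libraries.

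The same order was seen with every cell thinned to 3000 UMIs. The medians were then 15 and 11 axonemal genes in the selected cells, 2 and 2 in glial-type cells, and 12 and 11 in cells with at least 50 UMIs of Ttr. Cells too shallow for thinning numbered 2 control and 3 mutant selected cells. The selected cells spread from 0 to 69 detected genes in the control and from 0 to 68 in the mutant library. Fewer than 5 axonemal genes were detected in 29 of 194 control (14.9%) and 28 of 145 mutant cells (19.3%), 5 to 14 in 64 and 57 cells, and 15 or more in 101 and 60 cells (52.1% and 41.4%). The cells with fewer than 5 had no Deup1 UMI in the control and 1.9 CPM in the mutant library, and 12 neuronal markers summed there to 4057 CPM in the control and 1734 CPM in the mutant library. In the cells with 15 or more the neuronal sums were 704 and 1199 CPM. The rule thus also took cells with few other cilia transcripts. Next to the cut at 5 genes, on either side of it, lay 9 control and 12 mutant cells, and next to the cut at 15 genes lay 13 and 8.

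**Figure D2:**
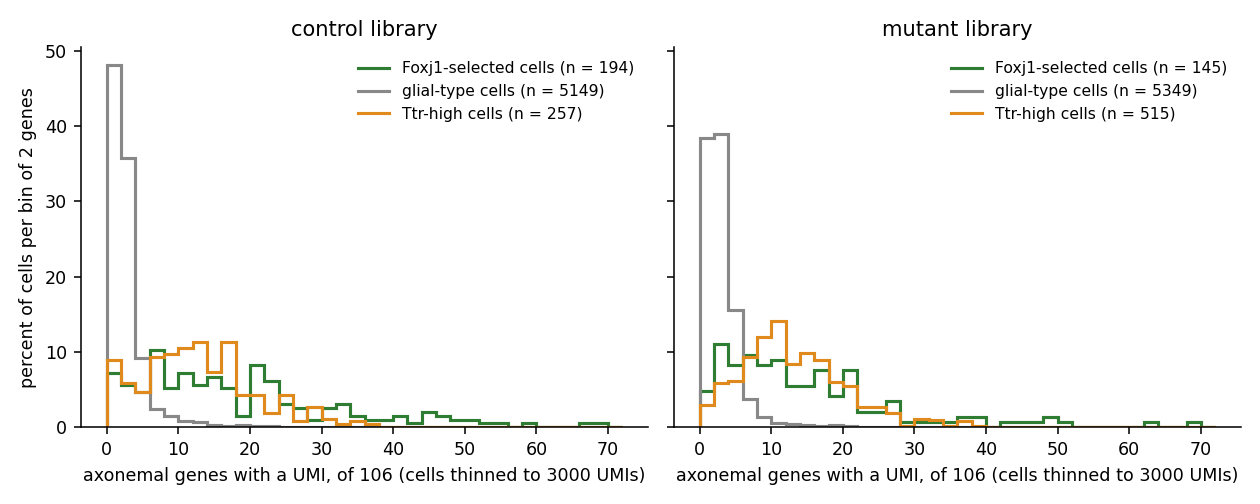
Distribution of the number of axonemal genes with a UMI per cell (horizontal axis, of 106 genes, cells thinned to 3000 UMIs) as percent of cells per bin of 2 genes (vertical axis) for Foxj1-selected, glial-type and Ttr-high cells in each library. Glial-type cells lie almost wholly below 10 genes, with medians of 2 and 2, while Foxj1-selected cells spread widely around medians of 15 and 11.

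Short stretches upstream of some cilia genes hold a common sequence motif, and those shown here were picked because they hold a match. RFX factors bind the X-box, a pair of similar short sites facing each other. The sequences below are 60 bases upstream of the annotated start, from RefSeq promoters on GRCm38.p6, written in the direction of the gene, with the matched motif in capitals. The first 6 hold the 14-letter X-box, GTTNCC and GNAAC with 3 bases between them, or its reverse complement, and the last 3 hold the single site GTTGCC or its reverse complement GGCAAC.
Cfap44 (chr16:44394739-44394798, plus strand): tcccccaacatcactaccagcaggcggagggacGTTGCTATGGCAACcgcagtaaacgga
Cfap45 (chr1:172521070-172521129, plus strand): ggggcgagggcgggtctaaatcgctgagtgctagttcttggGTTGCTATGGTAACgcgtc
Hydin (chr8:110266917-110266976, plus strand): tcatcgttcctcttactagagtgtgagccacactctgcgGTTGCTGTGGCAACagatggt
Spag16 (chr1:69826844-69826903, plus strand): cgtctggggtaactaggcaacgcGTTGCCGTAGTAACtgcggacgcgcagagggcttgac
Ccdc151 (chr9:22002635-22002694, minus strand): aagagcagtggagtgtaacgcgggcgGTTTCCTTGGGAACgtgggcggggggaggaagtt
Dnaaf2 (chr12:69198430-69198489, minus strand): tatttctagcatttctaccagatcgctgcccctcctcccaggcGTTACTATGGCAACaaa
Ccdc153 (chr9:44240498-44240557, plus strand): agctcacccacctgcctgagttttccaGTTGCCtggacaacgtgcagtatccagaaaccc
Dynlrb2 (chr8:116504937-116504996, plus strand): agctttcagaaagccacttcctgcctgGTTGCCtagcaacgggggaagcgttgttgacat
Deup1 (chr9:15627893-15627952, minus strand): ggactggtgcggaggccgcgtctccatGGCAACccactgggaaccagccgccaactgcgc
Promoter sequences were found for 103 of the 125 motile cilia genes. Within the 250 bases before and 50 after the start, the single site occurred on either strand in 49 of these 103 genes (47.6%) and in 14.1% of all 27025 genes of the table. The 14-letter motif occurred in 9 of the 103 (8.74%), namely Ak9, Ccdc151, Cfap44, Cfap45, Dnaaf2, Enkur, Hydin, Spag16 and Tekt4, and in 0.936% of all genes. A single site can lie inside the longer motif. The genes with the longer motif encode varied axonemal parts: Hydin and Spag16 belong to the central pair, Ccdc151 to the docking of outer dynein arms, Cfap45 and Enkur to the inside of the doublets, and Dnaaf2 to the assembly of dyneins. Their levels in the selected cells ranged widely, for example 27.2 CPM in the control and 27.0 CPM in the mutant library for Dnaaf2 and 141 and 183 CPM for Spag16. A match of letters is a description and does not show binding.

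Most motile cilia genes were higher in the selected cells than in other cells of the same library. Of 125 genes in 10 groups, 113 reached 10 CPM and 87 of them were at least 4-fold higher in both libraries than in cells with 0 UMIs of the 3 genes. Over all 10459 genes so compared, 3.4% were higher by this rule and 0.44% lower. The median log2 ratio of the 113 genes was 3.87 in control and 3.19 in mutant cells. Because the cells were chosen for correlated genes, this describes what they are and is no test.

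Inner and outer dynein arms were represented almost completely. Dnah12, an inner arm heavy chain, had 91.6 CPM in the control and 97.5 CPM in the mutant library, against 1.15 and 0.90 CPM in other cells. Dnah9 and Dnah11, outer arm heavy chains, had 144 and 117 CPM and 75.5 and 73.2 CPM in the 2 libraries. In all 11 of 12 outer arm genes and 11 of 12 inner arm genes were past 4-fold in both libraries. Genes for the assembly of axonemal dyneins followed in 5 of 7 tested, with Zmynd10 at 39.1 and 26.5 CPM against 0.41 and 0.71 CPM in other cells.

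The structural parts of the axoneme showed the same pattern. The counts past 4-fold were 4 of 7 tested radial spoke genes, 8 of 9 central pair genes, 8 of 9 genes of the nexin-dynein regulatory complex and its ruler, and 14 of 16 genes of the doublet interior. Cfap52, a protein of the doublet interior, had 95.8 and 76.4 CPM, against 1.79 and 1.54 CPM in other cells. Meig1, known for its part in sperm tail formation, had 245 and 131 CPM against 2.43 and 3.86 CPM. Ift88, Ift172 and Arl13b, which primary cilia also use, had log2 ratios of only 1.98, 0.91 and 0.92 in the control library and 0.97, 1.15 and 0.49 in the mutant library.

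Transcription factors of the programme were less restricted. Rfx3 had 405 CPM in the control and 470 CPM in the mutant library, with 165 and 308 CPM in other cells. Rfx2 (43.7 and 35.1 CPM against 8.51 and 7.94 CPM) and Mcidas (18.0 and 10.3 CPM against 0.20 and 0.17 CPM) were the 2 of 6 tested factors past 4-fold in both libraries. Gmnc, the gene of GEMC1 upstream of Mcidas, stayed below the 10 CPM minimum at 2.30 and 1.80 CPM, as did Trp73 and Foxn4. In Ttr-high cells Gmnc was at 66.0 and 78.0 CPM.

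Genes of centriole multiplication sat in few cells. Deup1 had a UMI in 21 of 196 control and 12 of 148 mutant cells, Cdc20b in 16 and 7, and Mcidas in 10 and 7. The top 5 cells gave 60.7% of the Deup1 UMIs in control and 91.3% in mutant cells. At least 1 UMI of Mcidas, Deup1, Cdc20b, Ccno or Foxn4 was found in 25 control (12.8%) and 18 mutant cells (12.2%). In glial-type cells the share was 2.6% and 2.39%, and in haemoglobin-rich barcodes 0.271% and 0.384%. After thinning the shares were 10.3% and 4.83% in the selected cells, with overlapping intervals (6.41 to 15.5% and 1.96 to 9.69%), and 0.699% and 0.692% in glial-type cells. Of the 25 control and 18 mutant selected cells with such a UMI before thinning, 15 and 6 had 6 or more UMIs of the selecting genes. The highest tier has 31 control and 15 mutant cells.

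By tier the levels of these genes differed widely. Deup1 had 0 CPM in the control cells with 2 UMIs, 54.2 CPM at 3 to 5 UMIs and 296 CPM at 6 or more, and 2.4, 19.3 and 398 CPM in the mutant cells. Rsph1, a radial spoke gene, went from 31.5 over 70.2 to 728 CPM in the control and from 31.5 over 60.6 to 534 CPM in the mutant library. Myb, which acts early in multiciliated cell formation, had 5.7, 20.9 and 164 CPM in the control and 6.5, 5.2 and 159 CPM in the mutant cells. Hdc, the gene of histidine decarboxylase, was at 99.3 and 60.9 CPM in the highest tier, with at most 2.5 CPM in the others. The summed level of the 106 axonemal genes was 4099, 7255 and 23268 CPM in the control and 3758, 6001 and 22999 CPM in the mutant library. The astroglial list summed to 14675, 16141 and 8807 CPM in the control and 15970, 13114 and 7713 CPM in the mutant library, lowest in the highest tier. Its members differed. Fabp7, the brain lipid-binding protein of radial glia, had 6868, 7200 and 3003 CPM in the control and 8053, 5374 and 1925 CPM in the mutant library. Hes5, a Notch target of progenitors, had 194, 219 and 17.4 CPM in the control and 329, 250 and 103 CPM in the mutant cells. Sox9, a glial transcription factor, was highest in the top tier of the control (277, 282 and 365 CPM) and lowest there in the mutant library (360, 312 and 267 CPM). As the tiers were formed on the selecting genes, these orders are descriptions.

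**Figure D3:**
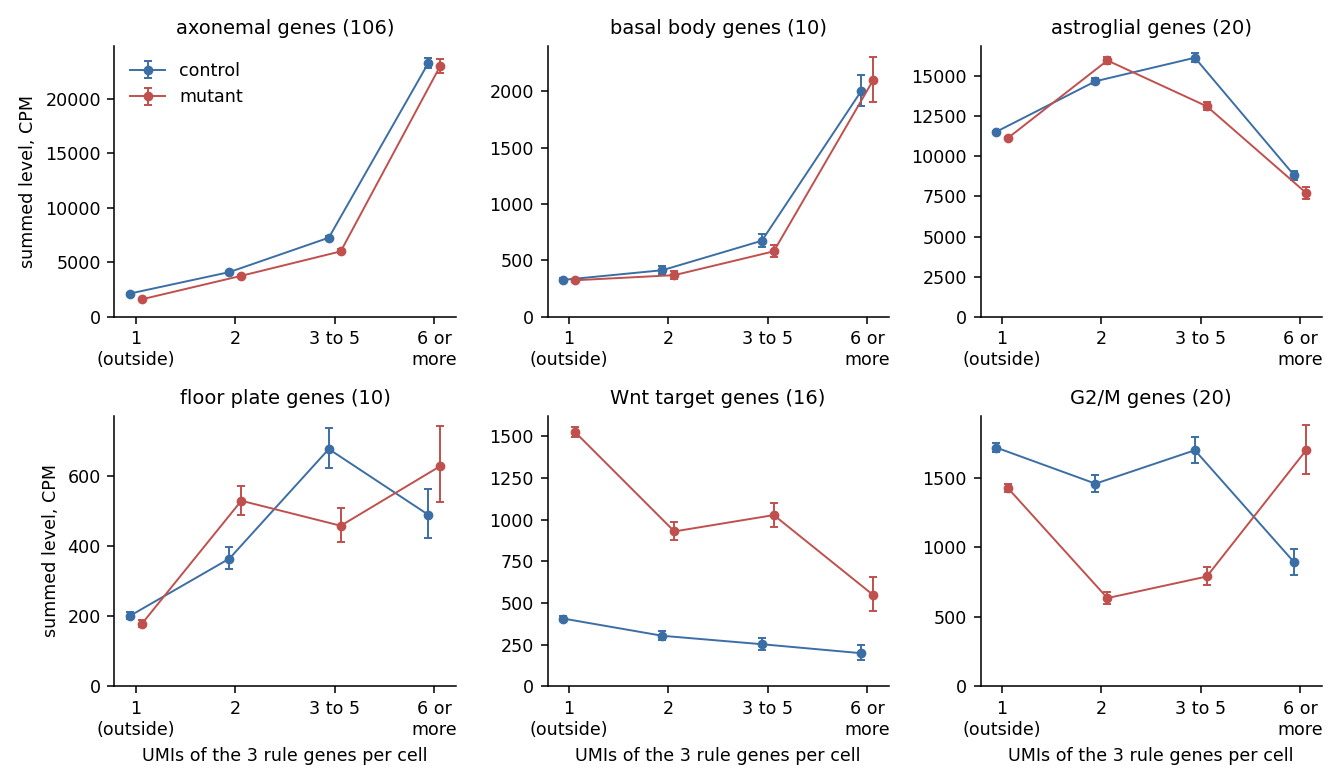
Summed levels in CPM (vertical axes) of 6 gene lists in cells with 1 UMI (outside the rule), 2, 3 to 5 and 6 or more UMIs of the 3 selecting genes (horizontal axes), in the control and the mutant library, with exact 95% Poisson intervals. Axonemal genes reach 23268 and 22999 CPM in the highest tier, and Wnt target genes are above control in every tier of the mutant library.

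Fewer cells of the mutant library were selected. The share of kept cells was 1.17% in the control (1.01 to 1.34%) and 0.898% in the mutant library (0.76 to 1.05%), a ratio of 0.77 (0.618 to 0.958). With all cells thinned to 3000 UMIs, 56 of 14379 control and 33 of 14430 mutant cells met the rule, which is a ratio of 0.587 (0.37 to 0.919). The intervals of the tiers overlapped 1 for 2 UMIs (ratio 0.824, 0.611 to 1.11) and for 3 to 5 UMIs (0.819, 0.551 to 1.21), and the ratio for 6 or more UMIs was 0.494 (0.248 to 0.942). The share is set partly by the Ttr limit. Ttr-high cells made up 1.62% of the control and 3.36% of the mutant library, and without the limit the ratio was 1.29, in the opposite direction. Shares of cells in a whole-tissue suspension also depend on how many other cells were recovered, which was not tested.

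Levels of cilia genes were compared between libraries with a rule of size: at least 1.5-fold, with the counting interval of the ratio on 1 side of 1. By this rule 641 of 10351 genes (6.19%) were higher in the mutant library and 646 (6.24%) lower, with a median log2 ratio of 0.00. Of the 113 motile cilia genes at 10 CPM or more, 0 were higher, 23 were lower and 90 were neither, with a median log2 ratio of -0.34, and 93 of the 113 were below 0. The summed axonemal level was 8038 CPM in the control and 6386 CPM in the mutant library, a ratio of 0.794 (0.778 to 0.812). The ratio within tiers was 0.917 (0.882 to 0.953) at 2 UMIs, 0.827 (0.796 to 0.86) at 3 to 5 UMIs and 0.988 (0.955 to 1.02) at 6 or more UMIs. The ratio was thus nearer to 1 inside each tier than over all. The highest tier held 15.8% of the control and 10.1% of the mutant cells, a ratio of 0.641 whose interval included 1 (0.322 to 1.22).

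The genes past the rule came from most parts of the cilium. Dynlrb2, a dynein light chain, had 343 CPM in the control and 185 CPM in the mutant library, a log2 ratio of -0.89. Meig1 had a log2 ratio of -0.90, Fam183b (230 and 110 CPM) of -1.06 and Fam216b (82.8 and 33.3 CPM) of -1.29, the lowest of the list. Rsph1 had 151 and 89.9 CPM, Cfap126, which takes part in placing basal bodies, 166 and 82.7 CPM, and Pih1d2, a dynein assembly factor, 66.7 and 35.5 CPM. The factors Mcidas and Myb were also lower, with log2 ratios of -0.75 and -0.73. In the highest tier, which holds most of their UMIs, their ratios were 0.736 (0.385 to 1.34) and 0.971 (0.623 to 1.49), with intervals that included 1. Mcidas turned to a log2 ratio of 0.27 in cells with 2 to 5 UMIs and to 0.55 with selection on Ccdc153 and Tmem212 alone, where Myb was at 0.0022. Cfap126 turned to 0.091 with no Ttr limit. By group, the lower counts were 2 of 6 transcription genes, 0 of 10 basal body genes, 2 of 12 outer arm genes, 0 of 12 inner arm genes, 3 of 7 assembly genes, 2 of 7 spoke genes, 1 of 9 central pair genes, 2 of 9 genes of the regulatory complex, 4 of 16 interior genes and 7 of 25 other genes.

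Several abundant cilia genes were near equal. Wdr63, an inner arm protein, had 76.6 CPM in the control and 76.4 CPM in the mutant library. Spag16 and Spag6l, both of the central pair, were above control at 141 and 183 CPM and 89.3 and 126 CPM, short of 1.5-fold. Central pair genes summed to 704 CPM in the control and 753 CPM in the mutant library, a ratio of 1.07 (1.0 to 1.14), and inner arm genes to 680 and 656 CPM (0.964, 0.899 to 1.03). Selection on Ccdc153 and Tmem212 alone, which left 30 control and 18 mutant cells, gave a median log2 ratio of 0.11 for the motile cilia list, the opposite sign.

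**Figure D4:**
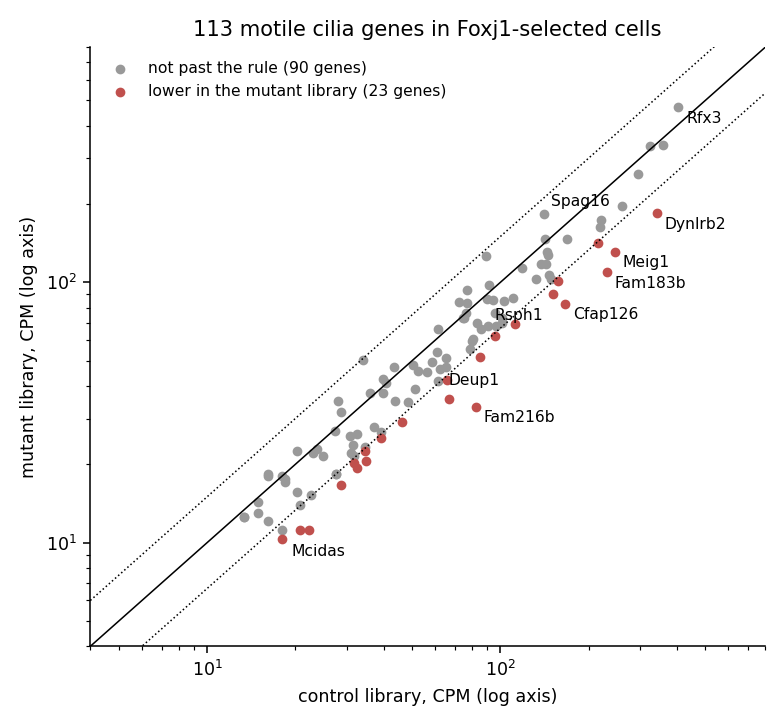
Level of each of 113 motile cilia genes in Foxj1-selected cells of the control (horizontal axis) and mutant library (vertical axis), in CPM on log axes, with the line of equality and dotted lines at 1.5-fold. The 23 genes called lower lie below the lower dotted line, and 0 genes were called higher.

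Part of the selected cells carried floor plate transcripts. Shh, the secreted signal of the floor plate, had 29.1 CPM in the control and 28.8 CPM in the mutant library, against 0.60 and 0.65 CPM in other cells. Ntn1, the axon guidance molecule netrin 1, had 285 and 257 CPM against 36.1 and 17.1 CPM. Foxa1, a transcription factor also found there, had 26.4 and 17.1 CPM. Of the 7 floor plate genes tested, 4 were past 4-fold over other cells in both libraries. At least 2 UMIs of Shh, Foxa1 and Foxa2 together were found in 42 of 196 control (21.4%) and 26 of 148 mutant cells (17.6%), which gives a ratio of 0.82 (0.483 to 1.37). The shares were 0.802% and 0.603% in glial-type cells, 1.1% and 0.181% in Ttr-high cells and 1 of 4066 and 1 of 4424 haemoglobin-rich barcodes. After thinning they were 4.12% and 3.45% in the selected cells and 0.272% and 0.206% in glial-type cells.

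These floor plate-positive cells had more axonemal genes than the rest. The median was 51 detected axonemal genes in control and 49 in mutant cells, against 31.5 and 28 in selected cells with no UMI of these 3 genes, at median depths of 10716.5 and 12963.5 UMIs against 12367 and 13084. Their Ntn1 level was 715 and 735 CPM against 91.5 and 123 CPM. Anxa1, a phospholipid-binding protein, was also higher in them at 425 and 138 CPM against 18.2 and 1.19 CPM. Pax3, a factor of the dorsal neural tube, was lower in them at 37.5 and 67.7 CPM against 295 and 153 CPM. Ccdc153 was also lower at 8.93 and 0 CPM against 72.2 and 23.2 CPM. Tmem212, also a selecting gene and ependymal marker, did not follow it. It was higher in the floor plate-positive cells of the control library (172 against 98.9 CPM) and at 20.1 against 25.6 CPM in the mutant library. Other dorsal genes did not all follow Pax3: Zic1 was at 60.7 and 140 CPM against 195 and 155 CPM, and Lmx1a at 16.1 and 20.1 CPM against 17.6 and 5.35 CPM. Between libraries, the floor plate list had 1 of 7 genes higher (Spon1, 96.6 to 164 CPM) and 1 lower (Foxa1), with a median log2 ratio of 0.17. Among all tested genes 6.19% were higher and 6.24% lower. With at least 3 selecting UMIs Spon1 turned to a log2 ratio of -0.28.

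Cells of the choroid plexus met the UMI part of the rule often. Of the Ttr-high cells, 117 of 273 control (42.9%) and 249 of 554 mutant cells (44.9%) had 2 or more UMIs of the 3 genes. The limit of 50 split 2 separate groups: selected cells had a median of 1 and 4 Ttr UMIs and at most 6 and 13, while all but 1 of the Ttr-high cells that met the UMI rule, in both libraries, had 200 or more. Ttr-high cells had a median of 38 and 37 axonemal genes, as many as the selected cells, at deeper medians of 18464 and 16246 UMIs. Multiciliation genes had a UMI in 23.1% and 20.6% of them. Among choroid markers in the selected cells, Folr1 (13 to 33.3 CPM), Sostdc1 (19.2 to 48.5 CPM) and Otx2 (40.6 to 66.5 CPM) were higher in the mutant library. Enpp2 (88.9 to 57.1 CPM) and Calml4 (231 to 146 CPM) were lower. Otx2 was higher at 2 UMIs (ratio 1.70, 1.22 to 2.39) and at 3 to 5 UMIs (5.13, 2.57 to 11.4) but lower at 6 or more (0.377, 0.141 to 0.862). Folr1 turned to a log2 ratio of -0.43 with Ccdc153 and Tmem212 alone, and Calml4 to 0.20 with no Ttr limit. Sostdc1 was at 8.12 and 166 CPM in other cells, so it was higher in other cells of the mutant library too.

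The largest differences between libraries lay outside the cilia genes. All 12 tested Wnt target genes were higher in the selected cells of the mutant library, against 6.19% of all tested genes. Their median log2 ratio was 1.95, which is the same with the 2 genes that had no UMI in the control set at their lower bounds. Wif1, a secreted Wnt inhibitor, had 7 UMIs in the control (2.68 CPM) and 259 in the mutant library (116 CPM). Lef1, a transcription factor of the pathway, had 8.81 and 82.2 CPM, Nkd1, an antagonist, 48.7 and 198 CPM, and Axin2, a feedback inhibitor, 19.2 and 56.2 CPM. With selection on Ccdc153 and Tmem212 alone (30 and 18 cells) the Wnt median was 0.77 and Lef1 turned to a log2 ratio of -0.72. Notum and Dkk1, further inhibitors, had 0 UMIs in the control and were at least 11.7-fold and 14.1-fold higher, with the control at a floor of 3 UMIs over the library. For Dkk1 1 cell gave 91.7% of the mutant UMIs. The 12 lesion genes, which earlier results of these same data had picked, were all higher, beside the same 6.19% of all tested genes. Their median log2 ratio was 3.16, which is no independent evidence of their direction.

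Of the 12 Wnt target genes, 11 were lower in the selected mutant cells than in other mutant cells, and the exception was Dkk1 (16.2 against 11.1 CPM). In the control library 9 of the 12 were lower than in other cells. Wif1 had 116 CPM against 315 CPM in other cells and 326 CPM in glial-type cells, Nkd1 198 against 479 and 509 CPM, and Lef1 82.2 against 173 and 164 CPM. In thinned cells at least 2 UMIs of 10 Wnt targets were found in 14.9% of control (10.2 to 20.8%) and 34.5% of mutant selected cells (26.8 to 42.8%). Glial-type cells gave 26.8% and 69.6%, and Ttr-high cells 16.7% and 25%. Unthinned, the shares were 55.1% and 68.9% in the selected cells and 5.14% and 16% in haemoglobin-rich barcodes. By tier the summed Wnt level of the mutant cells was 929, 1028 and 548 CPM, and that of the control cells 303, 253 and 198.7 CPM.

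The same genes were measured in the haemoglobin-rich barcodes, as a stand-in for free RNA. Of these barcodes 666 control and 778 mutant ones also passed the cell filter. Their levels can therefore include RNA of other cells or of the red cells themselves, which was not tested. In the mutant library, the non-haemoglobin UMIs of haemoglobin-rich barcodes held Wif1 at 264 CPM and Fstl4 at 400 CPM. With haemoglobin UMIs left out of the totals, selected mutant cells had 11.3% of the Ttr level of those barcodes, 33.4% of the Stmn2 level, 46.3% of the Wif1 level, 60.3% of the Lef1 level and 89.8% of the Fstl4 level. Ttr and Stmn2 mark choroid plexus and neurons. In the 15 mutant cells with 6 or more UMIs the percentages were 16% for Ttr, 7.6% for Stmn2, 13.2% for Wif1, 20.9% for Lef1 and 7.5% for Fstl4, and higher only for Axin2 (56.1%) and Nkd1 (44.3%) among the 4 Wnt genes named here. Tubb3, another neuronal gene, was at 24.4% there. Other genes that were higher in the mutant library stood above the level of those barcodes over all selected cells, with Col25a1 at 340%, Tnc at 314%, Sgcz at 184%, Grm8 at 170% and Hpse2 at 169%. In the 15 cells Grm8 was at 155%, Sgcz at 70.5%, Tnc at 29.6%, Hpse2 at 15.8% and Col25a1 at 13.9%. Hpse2 and Col25a1 were there at 4.99 CPM each, so these 2 percentages rest on very few UMIs. How much of each level came from free RNA was not tested.

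**Figure D5:**
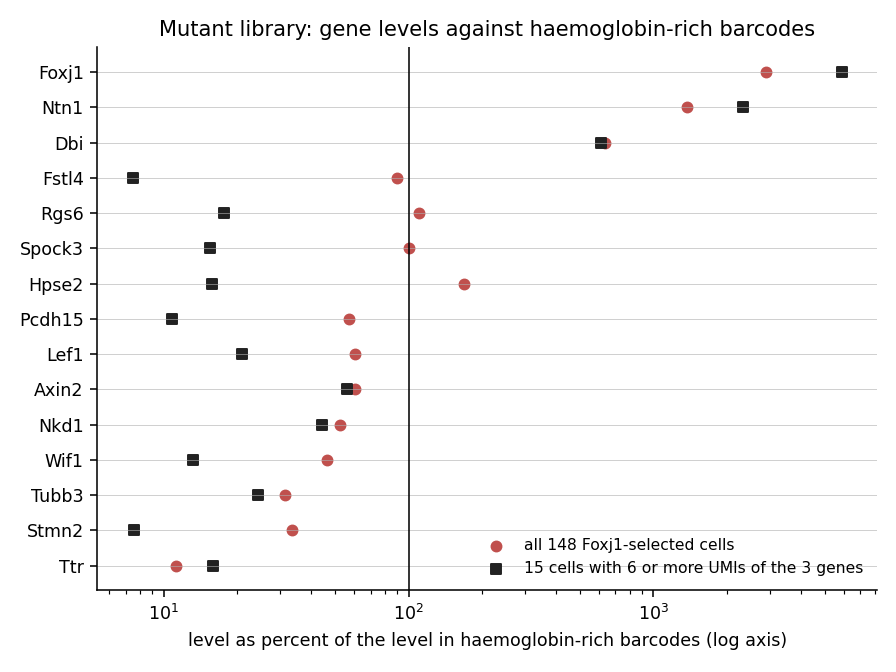
Level of 15 genes in Foxj1-selected cells of the mutant library as percent of their level in haemoglobin-rich barcodes (horizontal log axis, both with haemoglobin UMIs left out of the totals), for all 148 cells and for the 15 with 6 or more UMIs of the 3 selecting genes. Foxj1, Ntn1 and Dbi lie above 100%, while Ttr lies at 11.3% and 16%.

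Among single genes at 50 CPM or more, Fstl4, a follistatin-like secreted protein, had the highest ratio, with 5.36 CPM in the control and 342 CPM in the mutant library (log2 ratio 5.75). It had a UMI in 26 of 148 mutant cells, and 5 cells gave 69.1% of its UMIs. Wif1 followed, and then Spock3, a secreted proteoglycan, at 4.60 and 154 CPM. Npy and Hpse2, for neuropeptide Y and a heparanase-like protein, were both at 50.8 CPM in the mutant library, but 77.9% and 62.8% of these UMIs came from 1 cell. Sgcz, Col25a1, Pcdh15, Rgs6 and Grm8 had log2 ratios of 3.16 to 3.91 and a UMI in 43 to 59 of the mutant cells. Fstl4, Sgcz, Col25a1 and Npy were lower, not higher, in the 18 mutant cells selected on Ccdc153 and Tmem212 alone, as were Hpse2, Npy and Col25a1 with at least 5 selecting UMIs and Hpse2 and Npy after thinning. The thinned values of Hpse2 and Npy rest on very few UMIs, from 56 control and 33 mutant cells of 3000 UMIs each.

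The genes with the lowest ratios had different known roles. Gabrb1, a GABA receptor subunit, had a UMI in 116 of 196 control and 49 of 148 mutant cells, and its level was 554 and 152 CPM. In other cells it was at 74.9 and 45.1 CPM. Hopx, a marker of a subset of radial glia, had 121 and 33.3 CPM. Nppc, the gene of C-type natriuretic peptide, had 113 and 8.54 CPM, the lowest log2 ratio at -3.58, with 5 control cells giving 56.6% of its UMIs. Anxa1 had 128 and 31.0 CPM. Nppc was at 152 CPM in control cells without floor plate UMIs and 26.8 CPM in those with them. Pvalb, Mfap4, Olig1, Gria4, Pdzrn3 and Galnt13 completed the 10 lowest, with log2 ratios from -3.42 to -1.51. The direction turned in smaller selections. With at least 5 selecting UMIs Nppc was at a log2 ratio of 0.81, Gabrb1 at 0.86, Gria4 at 0.60 and Pvalb at 0.034, and after thinning Nppc was at 3.47 and Olig1 at 0.68. Thinning left 56 control and 33 mutant cells of 3000 UMIs each, so the thinned ratio of Nppc rests on very few UMIs. With Ccdc153 and Tmem212 alone Gria4 was at 0.70 and Pdzrn3 at 0.20. Mfap4 and Olig1 were also lower in other mutant cells, at 27.0 against 175 CPM and 32 against 86.7 CPM.

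The astroglial identity genes as a list differed little. Of 19 tested, 3 were higher and 2 lower, against 6.19% and 6.24% of all tested genes, with a median log2 ratio of -0.05. Fabp7 had 6375 CPM in the control and 6531 CPM in the mutant library. Tnc, an extracellular matrix protein of progenitors, was higher (175 and 504.2 CPM), as were Ptprz1 (898 and 1372 CPM) and Hes5 (175 and 280 CPM), while Hopx and Pax3 (210 and 132 CPM) were lower. Among regional transcription factors 5 of 15 were higher and 3 lower. Meis2 had 139 and 460 CPM and a UMI in 71 of 196 control and 82 of 148 mutant cells, and it was also higher in other mutant cells (107 and 280 CPM). With Ccdc153 and Tmem212 alone Meis2 turned to a log2 ratio of -0.54 and Tnc to -0.026.

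Genes of ependymal maturation, taken singly, were mostly near equal, with 0 of 20 higher and 3 lower, against 6.19% and 6.24% of all tested genes. The 3 were S100b (15.3 and 4.04 CPM), a calcium-binding protein of mature glia, Rarres2 (22.2 and 7.19 CPM), which encodes chemerin, and Hdc (16.9 and 5.84 CPM). Each had a UMI in at most 29 cells of a library, and S100b turned to a log2 ratio of 0.59 with Ccdc153 and Tmem212 alone. The list summed to 16144 CPM in the control and 12896 CPM in the mutant library, a ratio of 0.799 (0.787 to 0.811). Within tiers the ratio was 0.832 at 2 UMIs, 0.740 at 3 to 5 UMIs and 0.815 at 6 or more UMIs. Dbi, a lipid-binding protein and the largest part of this sum, was at 10166 and 7182 CPM, against 1607 and 1119 CPM in other cells. Vim, for the filament protein vimentin, had 1742 and 1769 CPM, and Mia, which encodes a secreted protein, 369 and 280 CPM against 43.2 and 27.3 CPM in other cells.

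Cell cycle genes were lower in the mutant library over all selected cells. Of 20 genes of G2 and M phase, 0 were higher and 19 lower, with a median log2 ratio of -0.86, and of 17 S phase genes 0 were higher and 4 lower. The shares over all tested genes were 6.19% higher and 6.24% lower. Top2a, the topoisomerase of dividing cells, had 189 and 118 CPM and Mki67 78.9 and 37.3 CPM. Other cells had the same direction, at 249 and 148 CPM of Top2a. The UMIs came from few cells: 1 of 148 mutant cells gave 20.7% of the G2 and M UMIs, and the median cell had 2 UMIs in both libraries. In the cells with 6 or more UMIs of the selecting genes the order was opposite, with 892 CPM in the control and 1700 CPM in the mutant library, where 1 cell gave 46.8% of the UMIs and 962 CPM remained without it. The median turned to 1.0 with a minimum of 5 selecting UMIs and to 0.30 after thinning, so no direction holds across the settings. Mki67 or Top2a had a UMI in 22.7% of thinned control cells (17.0 to 29.2%) and 14.5% of mutant cells (9.19 to 21.3%), against 32.6% and 21.4% of glial-type cells, and the intervals of the selected cells overlapped. In haemoglobin-rich barcodes, unthinned, it was 13.5% and 9.13%, against 41.8% and 28.4% of the selected cells.

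Inhibitors of the cycle were higher in part. Of 11 tested genes 6 were higher and 2 lower in the mutant library, with a median log2 ratio of 0.68. Cdkn1c, for p57, had 107 and 290 CPM, but in other cells it was at 157 and 330 CPM, and with Ccdc153 and Tmem212 alone its log2 ratio was -0.95. Cdkn2a had 0 UMIs in control and 30 in mutant cells, 80.0% of them from 1 cell. Notch genes had 2 of 9 higher and 1 lower and Hedgehog genes 2 of 7 higher, with medians of 0.07 and 0.24. Among all tested genes 6.19% were higher and 6.24% lower. Hes1, a Notch target, had 230 and 153 CPM.

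The 2 genes targeted in the mutants were close to equal in the selected cells. Smarca4 had 47.9 CPM in the control and 46.7 CPM in the mutant library, a ratio of 0.976 (0.745 to 1.28). In other cells it had 70.1 and 51.4 CPM. Ctnnb1 had 207 and 216 CPM, a ratio of 1.04 (0.918 to 1.18). Reads from the 3' end count transcripts whether or not an upstream exon has been deleted, so these values do not check recombination. Of 23 tested subunits of the BAF complex 2 were higher, Brd7 (102 and 165 CPM) and Dpf3 (13.4 and 22.5 CPM), and 0 lower. This is near the share over all tested genes, of which 6.19% were higher and 6.24% lower.

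Markers of other cell types moved with the comparison. The counts below stand beside 6.19% higher and 6.24% lower over all tested genes. The 12 neuronal markers had 6 lower and 1 higher in the mutant library and summed to 1547 CPM in the control and 1296 CPM in the mutant library, against 4593 CPM in other control cells. The direction differed by tier, with ratios of 0.498 (0.466 to 0.531) at 2 UMIs, 2.78 (2.52 to 3.08) at 3 to 5 UMIs and 0.466 (0.377 to 0.573) at 6 or more. The granule cell lineage had 5 of 8 lower and 1 higher (452 and 274 CPM). Microglial markers summed to 59.4 and 9.89 CPM, with 4 of 4 tested lower, and 1 control cell gave 96.8% of the C1qa UMIs. Fibroblast markers summed to 98.5 and 30.6 CPM, with 3 of 3 lower. Early stress genes had 6 of 12 lower and 0 higher, with Fos, which also responds to dissociation, at 1115 and 724 CPM against 224 and 237 CPM in other cells. Haemoglobin UMIs made up a median of 0.495% and 0.640% of a selected cell, and 3 control and 2 mutant cells had over 50%. The part of these markers in the differences above was not tested.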

How the data were processed

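The authors deposited 1 filtered matrix of raw UMI counts per gene and cell for each of 2 libraries. Cell Ranger 7.0.1 is named in the submitters' processing notes, with the mm10 genome build, and the libraries were 10x 3' v3.1, per the labels' protocols. Cells were loaded at 40000 per library from papain-digested cerebella after removal of dead cells by 7-AAD sorting.

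Cells were filtered and selected by the rule in the opening. Counts were summed over cells and given as CPM, and log2 ratios used a pseudocount of 1 CPM and a minimum of 10 CPM in either library. With 1 library per group there was no test. Ratios have exact conditional binomial intervals, shares exact Clopper-Pearson intervals and levels exact Poisson intervals, all at 95%. Scrublet in scanpy 1.11.5 was run at an expected doublet rate of 16%. Python 3.11.15, numpy 2.4.6, scipy 1.17.1 and pandas 2.3.3 were used, and GENCODE M21 gave coordinates for 32158 of 32285 feature identifiers. The calling step was tested on simulated Poisson counts per gene and library, which lack the concentration of UMIs in single cells seen here. The summing over cells was not tested.

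Genes were named as the 4 of the selection rule, Smarca4 and Ctnnb1, the 10 highest and 10 lowest ratios among called genes that reached 50 CPM in either library, the 15 highest over other cells, and from each list the 4 highest levels, the 2 largest differences and members whose role is described. Gm-numbered, mitochondrial, ribosomal, haemoglobin and sex-linked genes, and Rik genes outside the lists, were left out of rankings. The selected cells and 35 gene lists were chosen with earlier results of these data known, and the promoter motifs after seeing the data. Some genes are not reported here.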

Additional observations from a re-analysis of the deposited data

How the results depend on the processing

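No paired analysis was possible because each genotype has 1 library, and for the same reason no replicate could be left out. The ratio of shares (0.77) was 0.61 with selection on Ccdc153 and Tmem212 only, 0.59 after thinning to 3000 UMIs and 1.29, reversed, with no Ttr limit. The 641 genes higher became 307 with no Ttr limit, 267 after thinning and 239 with a minimum of 50 CPM. The 646 genes lower became 409 with at least 5 selecting UMIs, 156 after thinning, 260 with Ccdc153 and Tmem212 only and 189 with a minimum of 50 CPM. The motile cilia median (-0.34) was 0.11 with Ccdc153 and Tmem212 only. The Wnt median (1.95) was 3.21 with at least 5 UMIs, 1.08 with no Ttr limit, 0.77 with Ccdc153 and Tmem212 only and 1.72 with a minimum of 50 CPM. The G2 and M median (-0.86) was -0.50 with at least 3 UMIs, 1.0 with at least 5, 0.30 after thinning and 1.10 with Ccdc153 and Tmem212 only. These settings hold few cells: 36 control and 22 mutant with at least 5 UMIs, 56 and 33 after thinning, and 30 and 18 with Ccdc153 and Tmem212 only. The cause of these changes was not tested.

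Of 71 named genes, 44 had no reversal in any of the 18 settings. A reversal was counted only for genes called higher or lower over all selected cells. Genes called neither, such as Smarca4 and Ctnnb1, are therefore among the 44 whatever their sign did. Reversed log2 ratios with at least 3 UMIs were -0.28 for Spon1. With at least 5 UMIs they were -0.50 for Hpse2, -0.56 for Npy, -0.79 for Col25a1, 0.81 for Nppc, 0.034 for Pvalb, 0.86 for Gabrb1, 0.60 for Gria4, 1.52 for Mki67, 0.82 for Top2a and 0.081 for Cks2. With no Ttr limit they were 0.25 for Dnajb13, 0.091 for Cfap126, 0.20 for Calml4 and -0.066 for Cdkn1a. After thinning they were -2.80 for Hpse2, -4.24 for Npy, 3.47 for Nppc, 0.68 for Olig1, 0.22 for Dnajb13, 1.05 for Mki67 and 0.94 for Top2a. Those of Hpse2, Npy and Nppc rest on very few UMIs, as each thinned cell holds 3000. With Ccdc153 and Tmem212 only they were -1.65 for Fstl4, -0.23 for Npy, -3.27 for Sgcz, -1.86 for Col25a1, 0.70 for Gria4, 0.20 for Pdzrn3, 0.55 for Mcidas, 0.0022 for Myb, 0.59 for S100b, -0.72 for Lef1, -0.95 for Cdkn1c, -0.54 for Meis2, -0.026 for Tnc, 3.63 for Mki67, 1.25 for Top2a, 0.038 for Cks2 and -0.43 for Folr1. With cells of 2 to 5 UMIs, an alternative added after seeing the data, Mcidas was at 0.27.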

Other observations

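Roof plate and rhombic lip genes had 0 of 7 tested higher and 2 lower in the selected cells of the mutant library, Lmx1a and Rspo3, the latter at 28.7 and 11.7 CPM. Among all tested genes 6.19% were higher and 6.24% lower. In the floor plate-positive cells Wls, which is needed for Wnt secretion, had 557 CPM in the control and 632 CPM in the mutant library, against 178 and 280.2 CPM in selected cells with no floor plate UMI. Spon1, the gene of F-spondin, had 125 and 459 CPM against 60.8 and 92.2 CPM. Meis2 was lower in the floor plate-positive cells of both libraries, at 41.1 and 15 CPM against 186 and 581 CPM. Among barcodes that failed the cell filter, 1 of 4645 control and 0 of 5114 mutant barcodes met the selection rule, and the latter allows a share of up to 0.0587%.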
